A study of Homo sapiens with 3 samples.

Results

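The metallothionein genes were followed by their symbols, MT1A, MT1E, MT1F, MT1G, MT1H, MT1M, MT1X and MT2A, and all 8 were listed among the 25270 gene symbols of the deposited tables. The study sequenced untreated parental HepG2 cells, a human hepatocellular carcinoma line, and HepG2/metR cells, the HepG2 survivors of over 5 months under metformin, the latter with and without the lactate dehydrogenase inhibitor oxamate at 40 mM for 24 h. Each of these 3 conditions had a single library (n = 1), which leaves every difference without a replicate check and allows no p-value. Values are FPKM, fragments normalized to transcript length and to the mapped fragments of the library, back-transformed from the deposited log2(FPKM + 1), so levels can be compared between genes per length. A change is the difference of the deposited log2 values, and a gene was counted as changed from a 2-fold difference between HepG2/metR and parental cells, or a 1.5-fold difference with oxamate, among the 12210 genes with a mean of at least 1 FPKM.

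Metallothioneins are small, cysteine-rich proteins that hold zinc and copper, and bind toxic metals such as cadmium, through clusters of thiolate groups. Their genes lie side by side on chromosome 16 and are induced by zinc through the transcription factor MTF1, which binds short metal response elements in their promoters. Glucocorticoids and oxidative stress also induce them, and the liver is one of the organs in which they are most abundant. MT2A encodes metallothionein-2, the MT1 genes encode closely related forms of metallothionein-1, MT3 is known from the brain and MT4 from stratified epithelia.

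The promoters are shown because metallothionein genes are known to carry metal response elements there, while the members' levels in these libraries went different ways. RefSeq sequences were at hand for 3 of the 8 members, MT2A, the highest member, MT1X, which stayed expressed in every library, and MT1H, which was listed at 0 in every library. The 250 bases before the gene start are given 5′ to 3′ on GRCh38.p14, a later build than the hg19 named for the deposited values. Capitals mark the core of the metal response element, TGCACNC or TGCGCNC, on either strand.
MT2A, chr16:56608334-56608583, + strand: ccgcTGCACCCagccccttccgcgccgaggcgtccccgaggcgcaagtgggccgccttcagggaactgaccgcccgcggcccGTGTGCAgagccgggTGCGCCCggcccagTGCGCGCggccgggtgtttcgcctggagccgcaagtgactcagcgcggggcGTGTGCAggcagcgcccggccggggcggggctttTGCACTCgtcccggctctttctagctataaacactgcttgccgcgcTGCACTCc
MT1X, chr16:56682220-56682469, + strand: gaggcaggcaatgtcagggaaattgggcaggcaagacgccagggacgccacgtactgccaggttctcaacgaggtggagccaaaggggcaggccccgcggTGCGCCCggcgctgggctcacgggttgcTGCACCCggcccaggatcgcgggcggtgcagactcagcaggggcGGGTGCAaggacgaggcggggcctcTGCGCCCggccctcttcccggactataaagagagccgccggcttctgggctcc
MT1H, chr16:56669564-56669813, + strand: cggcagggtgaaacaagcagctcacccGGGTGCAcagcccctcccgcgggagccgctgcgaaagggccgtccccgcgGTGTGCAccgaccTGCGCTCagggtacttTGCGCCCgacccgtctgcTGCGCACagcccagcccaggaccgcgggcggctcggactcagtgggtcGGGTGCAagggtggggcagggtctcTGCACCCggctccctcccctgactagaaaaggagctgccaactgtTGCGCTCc

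MT1H held 8 such cores, 4 of each form, MT2A held 7, of which 5 were TGCACNC, and MT1X held 4, of which 2 were TGCACNC. No cores overlapped each other. Of 35116 promoters of the same length, 24.8% held at least 1 core, 0.37% held at least 4, 0.0313% held at least 7 and 0.0171% held at least 8. These shares were not matched for base composition. G and C made up 73.2% of the MT2A window, 70% of MT1X and 70.4% of MT1H, beside a median of 58% over all promoters. Of these 3 members, the one with the most cores, MT1H, was the one listed at 0 throughout. MT4 and MT1B, family genes outside the 8 members, held 3 cores each. MT4 was listed at 0 in all 3 libraries, and MT1B at 0.251 FPKM in parental cells and at 0 in both others. A relation between the number of cores and the level was not tested. The letters TATAAA occurred once each in MT2A and MT1X and not in MT1H, and were in 10.7% of all promoters. GGGCGG occurred 2 times in MT2A, 2 times in MT1X, where 1 match overlapped a core, and 1 time in MT1H, against 42.6% of promoters with a match. MT2A held 1 match to TGANTCA, the AP-1 site (6.57% of promoters), which lay inside its 1 match to TGACNNNGC, the antioxidant response element (10.9%). MT1X also held 1 match to TGACNNNGC, and MT1H held neither. AGAACA, the core of the glucocorticoid response element, was in none of the 3 windows and in 12.4% of promoters. These letter matches say nothing about binding in these cells.

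The HepG2/metR library differs from the parental one in far more than metallothioneins, and this stands beside every value given here. The 8 hepatocyte markers ALB, APOA1, APOA2, AFP, TTR, SERPINA1, HNF4A and FGB summed to 29793 FPKM in parental cells, 13.9 in the HepG2/metR library and 11.1 after oxamate. In HepG2/metR all 8 were at least 2-fold lower, against 17.6% of all genes tested. In each HepG2/metR library 6 of the 8 were under 1 FPKM, with TTR at 0 in both and APOA1 at 0 in the untreated one. These 6 passed the filter only through their parental value. SERPINA1 and FGB were the markers still above 1 FPKM, so most defining markers of the labelled liver origin were near 0 outside the parental library. Of 8 mesenchymal markers, 6 passed the filter, of which VIM, THY1 and SPARC passed 2-fold upward and FN1 downward in HepG2/metR. None of the 8 was at 0. They summed to 1571, 2264 and 1702 FPKM, but different genes made up most of these sums. FN1 was at 1503 FPKM in parental cells, 45.7 in the HepG2/metR library and 93.7 after oxamate. VIM went from 1.23 to 1576 and 1140 FPKM, THY1 from 0.0374 to 53.3 and 48.5, and SPARC from 27.4 to 552 and 376. The part of this difference between the cultures in the metallothionein values was not tested. Values of a whole culture cannot tell a change within the cells from a change in which cells make it up.

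In parental HepG2 cells 7 of the 8 members were listed above 0 FPKM, and in both HepG2/metR libraries 4 were. MT2A was by far the highest member in each library, at 1686 FPKM in parental cells, 3254 in the HepG2/metR library and 2201 after oxamate. It ranked 44 among all genes in parental cells, 13 in HepG2/metR and 21 with oxamate. MT1E, the highest MT1 gene, was at 387 FPKM in parental cells, 312 in the HepG2/metR library and 454 after oxamate. MT2A was thus highest in HepG2/metR, where MT1E was lowest. MT1X came next, at 185, 77.4 and 98.0 FPKM, with both HepG2/metR libraries below the parental one. These 3 genes were the highest of the family in every library.

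MT1G, a gene known to be silenced in many liver tumors, was listed at 175 FPKM in parental HepG2 cells, close to MT1X, and at 0 in HepG2/metR with or without oxamate. MT1F was listed at 89.6 FPKM in parental cells, 6.20 in the HepG2/metR library and 2.03 after oxamate. It was the 1 low member that could still be read in all libraries, and each step brought a lower value. MT1A was listed at 8.97 FPKM in parental cells and at 0 in both others. MT1M was listed at 2.43 FPKM in parental cells and at 0 in both others. MT1H was listed at 0 in all 3 libraries. The order of levels was therefore MT2A, MT1E, MT1X, MT1G, MT1F, MT1A, MT1M in parental cells and MT2A, MT1E, MT1X, MT1F in both HepG2/metR libraries, and without replicates it cannot be said which neighbors in that order differ beyond their spread.

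A value of 0 in these tables may be a low level or a failed estimate. Among 1133 other genes with a longest transcript of 350 to 850 nt, small RNAs left out, the lowest 5% of the values above 0 lay below 0.0574 FPKM in parental cells, 0.0475 in the HepG2/metR library and 0.0387 after oxamate. Of 80 ribosomal protein symbols 3 were listed at 0 in any library, the paralogs RPL3L, RPL10L and RPL39L. Because the members are near-copies of each other, reads can also be assigned to the wrong one. In GENCODE 29 transcripts, 16.5% of the 50-nt windows of MT1G occur in a transcript of another gene, 15.8% of those of MT1H, 9.87% of MT1M, 7.10% of MT1E, 5.76% of MT1A, 4.24% of MT2A and 3.27% of MT1F. With 75-nt windows MT2A, MT1A and MT1F shared 0%, MT1M 0.231%, MT1E 1.42%, MT1G 5.73%, MT1H 7.34% and MT1X 36.8%. MT1X shared 43.6% of its 50-nt windows, most of them with AC026461.1. The read length is not given in the sources used here.

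The order of the members along chromosome 16 is MT2A, MT1E, MT1M, MT1A, MT1F, MT1G, MT1H, MT1X. MT2A, MT1E and MT1X, which stayed at 77.4 FPKM or more in every library, are the first, the second and the last of this row. The 5 consecutive members between MT1E and MT1X summed to 276 FPKM in parental cells, 6.20 in the HepG2/metR library and 2.03 after oxamate, all of the latter values from MT1F. MT1B, a further metallothionein-1 gene that lies between MT1A and MT1F, was listed at 0.251 FPKM in parental cells and at 0 in both others. MT1L, MT1JP, MT1DP and MT1IP, as well as MT3 and MT4 at the start of the row, were listed at 0 in all 3 libraries. MT1HL1 and MTL5 are not part of this row. MT1HL1 was also listed at 0 in all 3 libraries. MTL5, named for a metallothionein-like protein of the testis, was listed at 0.0352, 1.01 and 0.996 FPKM.

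Of 7 flanking genes, 5 passed the filter on low values, with a median log2 change of -0.42 between HepG2/metR and parental cells. Of the 5, 0 differed 2-fold, but most of all genes did not either, since 17.6% were lower and 16.6% higher. BBS2, the nearest listed coding neighbor before MT4, was at 17.8 FPKM in parental cells, 13.0 in the HepG2/metR library and 21.6 after oxamate. NUP93, a nuclear pore gene and the first coding neighbor after MT1X, was at 37.9, 44.6 and 32.4 FPKM. With oxamate BBS2 was higher by 0.68 and HERPUD1, which acts in the disposal of misfolded proteins of the endoplasmic reticulum, lower by 0.68 on the log2 scale (log2 change -0.68), the latter past 1.5-fold only without scaling to the same total FPKM. Of all genes 4.3% were at least 1.5-fold higher with oxamate and 3.82% lower. NUDT21 and OGFOD1 were between 23.3 and 72.9 FPKM in every library. SLC12A3 was listed below 0.1 FPKM throughout, and CETP, a plasma lipid transfer protein made in the liver, at 1.14 FPKM in parental cells and 0 in both others.

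Between HepG2/metR and parental HepG2 cells the members went different ways. Of the 8 members, 6 passed the filter on low values, MT1M and MT1H not. In HepG2/metR 4 of the 6 were at least 2-fold lower, namely MT1A, MT1F, MT1G and MT1X, against 17.6% of all genes tested, and 0 were at least 2-fold higher, against 16.6%. MT1A and MT1G passed the filter only through their parental value. The median log2 change of the 6 was -2.28, beside 0.015 over all 12210 genes, and MT1A and MT1G enter it with values of 0 in HepG2/metR. Without the filter MT1M also passes 2-fold, at a parental level of 2.43 FPKM.

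MT1F changed by -3.65 on the log2(FPKM + 1) scale and was 14.4-fold lower in FPKM. MT1X changed by -1.24 and was 2.39-fold lower. MT1E changed by -0.31, or 1.24-fold lower, inside the threshold. MT2A changed by 0.95, or 1.93-fold higher, just inside the threshold of 1 on the log2 scale. It passed when the libraries were scaled to the same upper quartile, at 1.10, or to the same total FPKM, but relative to the median of all genes under each scaling it lay between 0.93 and 0.95. MT1G, MT1A and MT1M get no fold because they were listed at 0 in HepG2/metR.

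**Figure D1:**
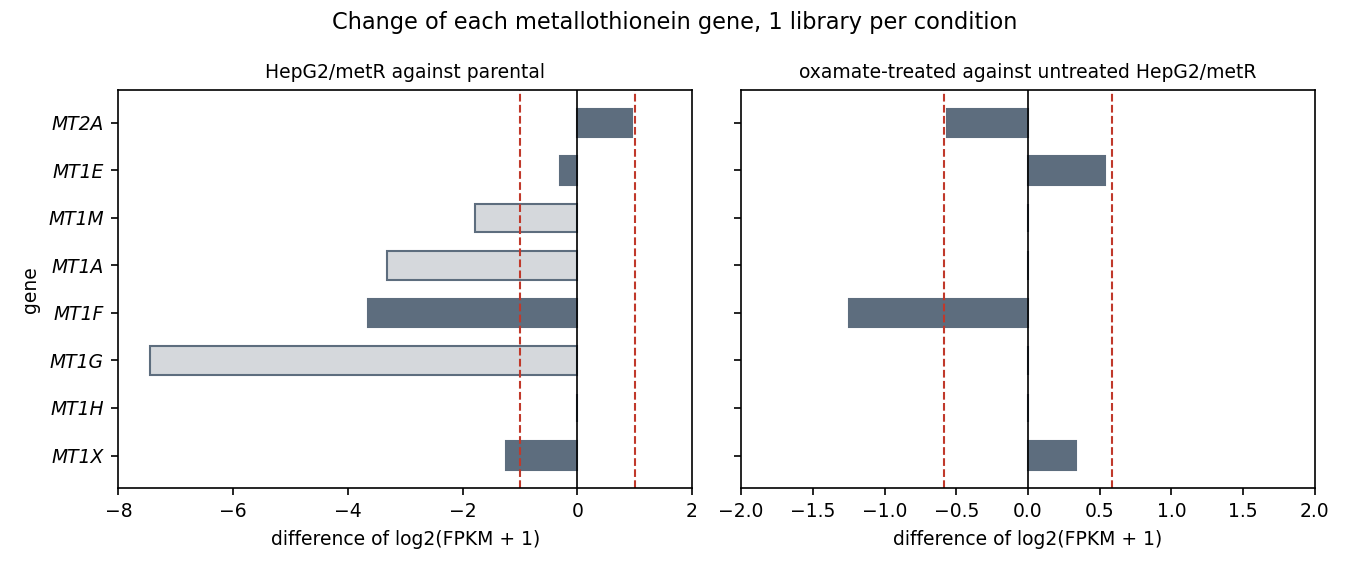
Difference of log2(FPKM + 1) of each member, in gene order, for HepG2/metR against parental HepG2 (left) and oxamate-treated against untreated HepG2/metR (right, on a scale of its own); 1 library per condition, so there are no error bars. Dashed lines mark the 2-fold and 1.5-fold thresholds, light bars are genes listed at 0 in HepG2/metR, and MT2A lies just inside the line in both panels, on opposite sides of 0.

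With oxamate the same members stayed on and the same members stayed at 0. MT1F was the 1 member of 6 at least 1.5-fold lower, against 3.82% of all genes, with a log2 change of -1.25 from 6.20 to 2.03 FPKM. None of the 6 was at least 1.5-fold higher, against 4.3%. At a 2-fold threshold, which 0.524% of all genes passed downward and 0.541% upward, MT1F was again the 1 member past it. MT2A changed by -0.56, or 1.48-fold lower, and MT1E by 0.54, or 1.45-fold higher, both just inside the threshold of 0.585. MT1X changed by 0.34, or 1.27-fold higher. The median over the 6 was 0 because MT1A and MT1G were at 0 in both libraries, and it was 0.021 over all genes.

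These calls depend on the scaling. With both libraries set to the same total FPKM the median of all genes was 0.17, the share of genes at least 1.5-fold higher was 9.7% and lower 1.57%, and MT1E passed the threshold at 0.71 while MT2A changed by -0.39. With median-of-ratios size factors MT2A passed at -0.59. Relative to the median of all genes, MT2A lay between -0.59 and -0.55 and MT1E between 0.51 and 0.55 under every scaling tried, so their directions were opposite under all of them.

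Ratios within a library need no scaling, and they differed between the libraries. MT2A was 4.36 times MT1E in parental cells, 10.4 times in the HepG2/metR library and 4.85 times after oxamate. Against the parental library the ratio was thus 2.39 times higher in HepG2/metR, and it was 2.15 times lower with oxamate than without. Against the sum of the 7 MT1 genes, MT2A was 1.99, 8.22 and 3.97 times as high. MT1E was 2.09 times MT1X in parental cells, 4.04 times in HepG2/metR and 4.63 times with oxamate. The untreated HepG2/metR library enters both comparisons.

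The family as a whole summed to 2532 FPKM in parental cells, 3650 in the HepG2/metR library and 2755 after oxamate. Against parental cells the sum in HepG2/metR was 1.44-fold higher, and it was 1.33-fold lower with oxamate, inside the threshold in both comparisons. The MT1 genes alone summed to 847, 396 and 554 FPKM, which was 2.14-fold lower in HepG2/metR and 1.40-fold higher with oxamate. MT2A gave 66.6% of the family's level in parental cells, 89.2% in HepG2/metR and 79.9% with oxamate. MT1E gave 15.3%, 8.56% and 16.5%, and MT1X 7.29%, 2.12% and 3.56%. MT1G gave 6.90% and MT1F 3.54% in parental cells, and MT1F 0.170% and 0.0738% in the HepG2/metR libraries. The larger sum in HepG2/metR thus came from MT2A alone, since no MT1 member was higher there than in parental cells.

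**Figure D2:**
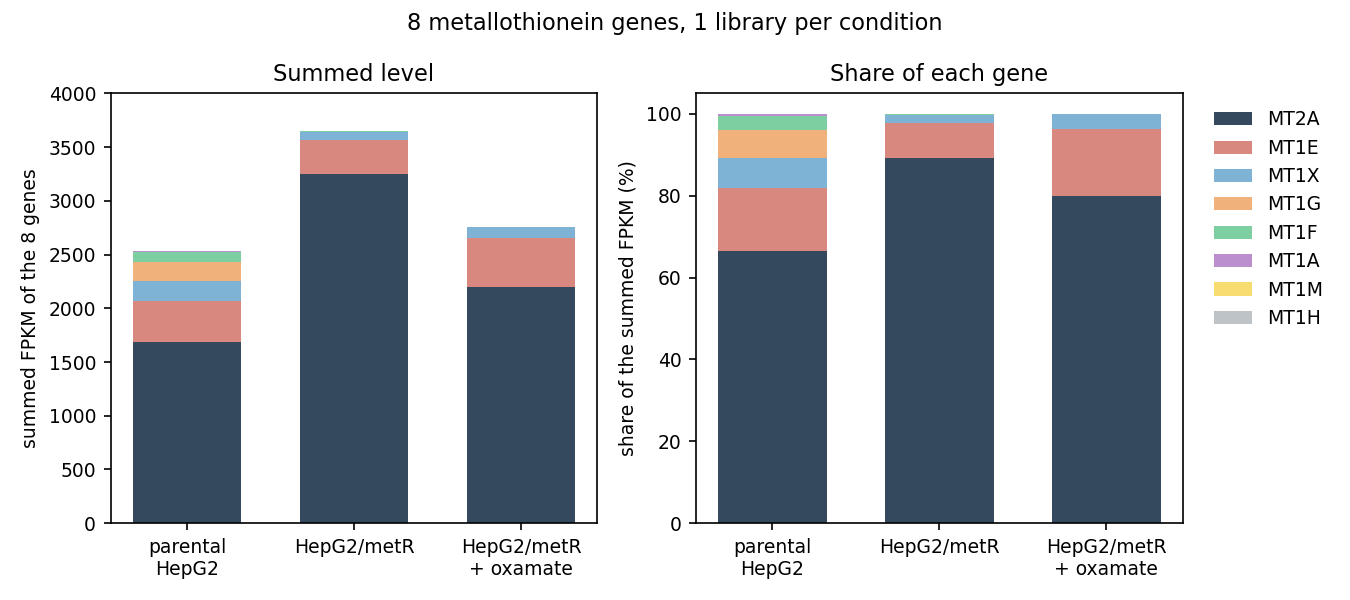
Summed FPKM of the 8 members (left) and the share of each member in that sum in percent (right), for the parental, the HepG2/metR and the oxamate-treated library, with 1 library each and no error bars. MT2A fills 66.6%, 89.2% and 79.9% of the bars, and MT1G is visible only in the parental one.

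Over the 3 libraries, a few points in which many genes look alike, the genes whose pair of log2 changes lay nearest to that of MT2A were BARD1, SF3B4 and RUVBL2, at distances of 0.031, 0.034 and 0.036. SF3B4, a splicing factor gene, was listed at 39.1, 74.7 and 50.8 FPKM. Nearest to MT1E were N4BP2, PPM1K and MAN1A2, at distances of 0.015, 0.024 and 0.024. BARD1 was listed at 3.67, 7.94 and 4.93 FPKM, N4BP2 at 2.57, 1.86 and 3.15, and PPM1K at 2.83, 2.06 and 3.49. At such low levels the 1 added before the log understates the change, so their FPKM changes are less alike than the distances. Of 12186 genes compared, 27 lay within 0.1 of MT2A and 55 within 0.1 of MT1E.

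Genes that control or share metal with metallothioneins were followed as lists. MTF1, the zinc-sensing activator, was low in every library, at 2.68 FPKM in parental cells, 3.51 in the HepG2/metR library and 4.05 after oxamate, and passed neither threshold. Of 9 regulators, all above the filter, 1 was higher and 1 lower in HepG2/metR, beside 16.6% and 17.6% of all genes. NR3C1, the glucocorticoid receptor, was higher (7.20 to 16.1 FPKM, log2 change 1.06), and NFE2L2, the activator of antioxidant genes, was lower (90.4 to 39.3 FPKM, log2 change -1.18). The other 7 passed in neither direction, and with oxamate 0 of 9 passed, beside 4.3% of all genes higher and 3.82% lower. The median log2 change of the list was 0.07 and 0.13 in the comparisons.

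SLC30A1, the zinc exporter of the plasma membrane and a textbook target of MTF1, was listed at 24.3 FPKM in parental cells, 10.6 in the HepG2/metR library and 19.5 after oxamate. It was lower in HepG2/metR by a log2 change of -1.13 and higher with oxamate by 0.83. Its values thus went in the directions of MT1E and MT1X and against those of MT2A, in comparisons that share a library. Of 10 exporters of its family 7 passed the filter, and of these 2 were lower in HepG2/metR and 1 higher, counts near the 17.6% and 16.6% of all genes. SLC30A10 and SLC30A4 passed the filter only through the libraries in which they were high. The other lower one was SLC30A10, a manganese exporter, listed at 5.02 FPKM in the parental library and at 0 in HepG2/metR. SLC30A4, which loads zinc into vesicles, was listed at 0, 1.44 and 2.69 FPKM and was higher in both comparisons. With oxamate 2 exporters were higher, SLC30A1 and SLC30A4, the latter not with median-of-ratios size factors, and 0 were lower. Of all genes 4.3% were higher and 3.82% lower.

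Of 14 zinc importers 12 passed the filter, and of these 4 were lower and 2 higher in HepG2/metR, where 17.6% and 16.6% of all genes passed. The share that was higher was thus near that of all genes. The lower ones were SLC39A5, listed at 30.3 FPKM in the parental and 0.0193 in the HepG2/metR library, SLC39A4, the intestinal zinc importer (45.3 to 4.90), SLC39A14, which also carries iron and manganese into hepatocytes (208 to 40.9), and SLC39A7, which releases zinc from the endoplasmic reticulum (259 to 92.6). The higher ones were SLC39A8, at 0.345 and 4.82 FPKM, and SLC39A10, a gene that MTF1 is known to repress, at 6.34 and 20.4 FPKM. SLC39A5 passed the filter only through its parental value, and SLC39A8 only through the HepG2/metR libraries. With oxamate SLC39A4 was lower, at 2.24 FPKM with a log2 change of -0.86, and 0 were higher, or 1 with the same total FPKM. This stands beside 3.82% of all genes lower and 4.3% higher. The median log2 changes were -0.22 and 0.0013 for importers and -0.60 and 0.16 for exporters, beside 0.015 and 0.021 over all genes.

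**Figure D3:**
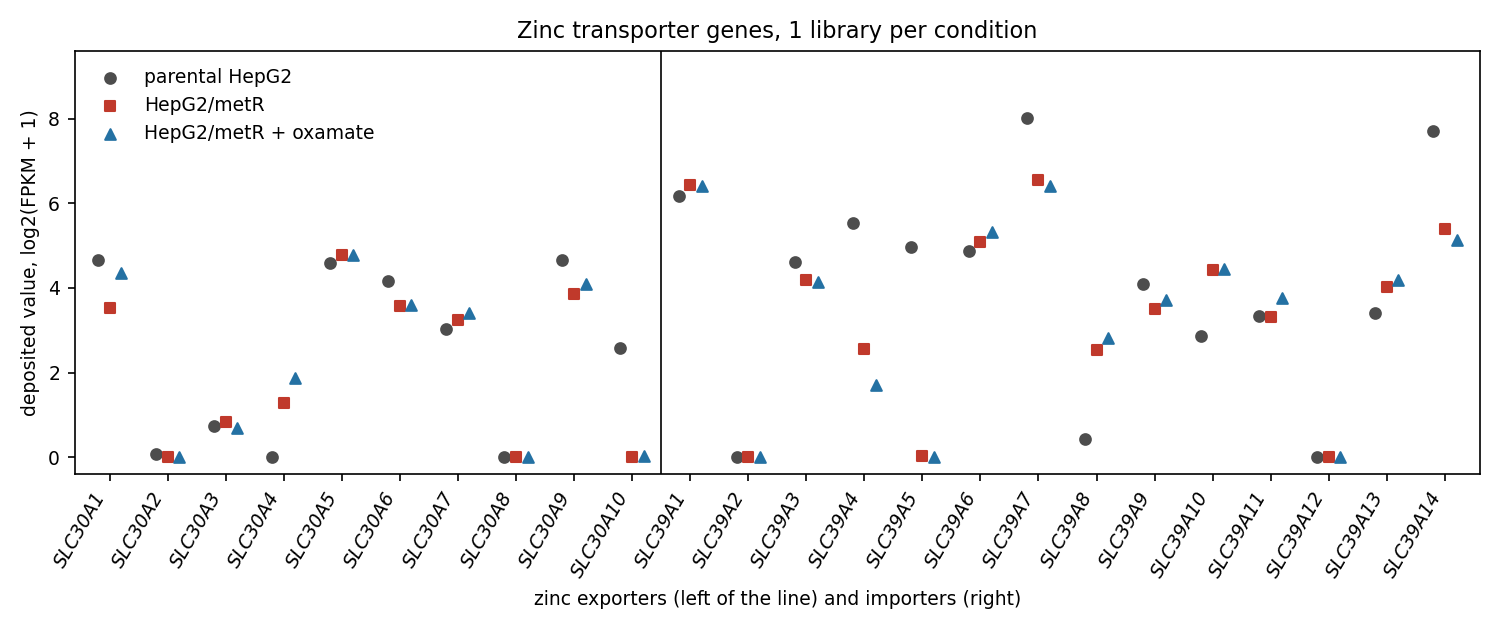
Deposited value, log2(FPKM + 1), of 10 zinc exporter genes (left of the line) and 14 importer genes (right), with circles for parental HepG2, squares for HepG2/metR and triangles for oxamate-treated HepG2/metR, 1 library each and no error bars. SLC30A1 is lowest in HepG2/metR, and SLC39A4, SLC39A5, SLC39A7 and SLC39A14 are highest in parental cells.

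Metallothioneins also hold copper, and all 13 copper handling genes passed the filter. In HepG2/metR 4 of the 13 were lower and 0 higher, beside 17.6% and 16.6% of all genes, with a median log2 change of -0.35 over the list. They were CP, the secreted copper protein ceruloplasmin (38.4 to 0.0680 FPKM), SLC31A1, the copper importer (38.9 to 9.90), ATP7B, the copper pump mutated in Wilson disease (18.2 to 5.45), and SCO2, which delivers copper to cytochrome c oxidase (25.2 to 10.5). CP passed the filter only through its parental value. With oxamate 0 of 13 passed in either direction, beside 3.82% of all genes lower and 4.3% higher, and the median was -0.0021. With the same total FPKM 1 was higher.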

How the data were processed

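RNA-seq was available for 1 library of parental cells and 1 each of HepG2/metR cells without and with oxamate. The authors deposited log2 values, 1 per gene symbol and library. Their form is log2(FPKM + 1): the unit was inferred, since 100% of the back-transformed values above 1 had at most 6 significant digits (relative tolerance 1e-08). The submitters' processing notes name STAR 2.5.1b, Cufflinks 2.2.1, FastQC 0.11.5 and hg19. The annotation, the filters and the treatment of reads that map to several members are not given in the sources used here. Read depth is unknown, which allows no counting interval. The libraries' FPKM summed to 562382, 534646 and 473773.

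The members and gene lists were chosen with earlier results of these data known. Genes with a mean of at least 1 FPKM over the libraries were kept (12210), and changes are differences of the deposited values, which include a pseudocount of 1 and understate the change of low genes. The 2-fold and 1.5-fold thresholds come from the study's methods, for an increase in HepG2/metR and a decrease with oxamate. Here both were used in both directions. The paper's results text names only a 2-fold cut-off. Named were all family symbols listed, MTF1, SLC30A1, flanking genes, at most 4 genes per list and comparison past the fold, and for the 2 highest members the 3 genes at the smallest Euclidean distance in the plane of the log2 changes. Promoters of MT2A, MT1X, MT1H, MT4 and MT1B and the gene order came from RefSeq tables of GRCh38.p14. MT1A, MT1E, MT1F, MT1G and MT1M had no promoter entry. Motifs were searched on both strands. The table of transcripts was GENCODE 29; shared windows and the values of short genes were examined after the data had been seen. The fold count was tested on simulated data with large changes at levels well above the filter. That test does not cover zeros, low levels or changes near the threshold. Python 3.11, numpy 2.4.6, pandas 2.3.3 and matplotlib 3.10.9 were used. Alternatives were other pseudocounts, filters, scalings and thresholds. Of the 25270 symbols, 28 had been turned into dates and were not used by name.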

Additional observations from a re-analysis of the deposited data

How the results depend on the processing

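With 1 library per condition, no result could be checked against the spread between cultures. How high the true level of a gene listed at 0 could be is not known. No paired analysis was possible because each group has 1 sample. For HepG2/metR against parental cells, the number of members at least 2-fold higher went from 0 to 1, MT2A, with the libraries set to the same upper quartile, the same total FPKM, or the same total FPKM without small-RNA genes. With no pseudocount the number at least 2-fold lower went from 4 to 2 and the median from -2.28 to -0.78, since MT1A and MT1G, at 0 in HepG2/metR, then have no value. With a mean FPKM of at least 5, MT1A is not tested, 3 members were lower and the median was -1.24, and with no filter 5 were lower and the median was -1.51. For oxamate, the number at least 1.5-fold higher went from 0 to 1, MT1E, with the same total FPKM, with or without small-RNA genes, and the number at least 1.5-fold lower from 1 to 2, with MT2A added, with median-of-ratios size factors. No member changed direction under any alternative that gave it a value, and the log2 change of the summed level stayed between 0.51 and 0.68 in HepG2/metR and between -0.43 and -0.21 with oxamate.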

Other observations

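Of 12 genes of the metal and heat stress response, 11 passed the filter on low values. In HepG2/metR against parental cells 3 were at least 2-fold lower, GCLC, which makes the first step of glutathione synthesis (4.32-fold, from 38.9 FPKM), HSPA1B, an inducible heat shock protein (34.1 to 8.44), and HMOX1, the heme-degrading enzyme that many metals induce (41.0 to 15.8). HSPA1A, in the same list as HSPA1B, changed by less, from 13.9 to 8.86 FPKM, and did not pass. Of all genes 17.6% were lower and 16.6% higher, so the 2 higher genes that follow are near the share of all genes. TXNRD1, a thioredoxin reductase, was higher (90.1 to 438 FPKM), as was the chaperone partner BAG3 (2.26-fold, to 28.3 FPKM). The median log2 change was -0.54, beside 0.015 over all genes. With oxamate 1 of the 11 was at least 1.5-fold lower, beside 3.82% of all genes, and 0 were higher, beside 4.3%. The lower one was HSPB1, a small heat shock protein (65.7 to 41.1 FPKM, log2 change -0.66). With the libraries set to the same total FPKM, 0 of the list were at least 1.5-fold lower and 2 were higher. HMOX1 was listed at 11.2 FPKM with oxamate.

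Of 7 genes of the glucocorticoid response 6 passed the filter, of which 2 were higher and 2 lower in HepG2/metR than in parental cells, beside 16.6% and 17.6% of all genes. TSC22D3, which encodes the glucocorticoid-induced leucine zipper (0.541 to 6.20 FPKM), and DUSP1, a phosphatase of stress kinases (7.07 to 20.5), were at least 2-fold higher. FKBP5, a co-chaperone of the receptor (32.8 to 4.37), and KLF9 (5.65 to 0.579) were at least 2-fold lower. KLF9 passed the filter only through its parental value, and TSC22D3 only through the HepG2/metR libraries. The median log2 change was 0.17. With oxamate FKBP5 was lower again (2.34 FPKM, log2 change -0.69) and none was higher, beside 3.82% and 4.3% of all genes. With the same total FPKM 0 of the list were lower.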
